A study of Mus musculus with 12 samples.

Results

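The comparison described here was that of Keap1 knockout (KKO) with wild-type (WT) mouse CD4+ T cells after 48 h of activation, and its members were the 6 libraries whose sample labels and column names gave 48 h, out of 12 libraries in the series. The groups were WT at 48 h (n = 3) and KKO at 48 h (n = 3). All 6 were cultures of naive CD4+ T cells stimulated with antibodies to CD3 and CD28, from which total RNA was taken at 48 h for mRNA sequencing, and the remaining 6 libraries were of the same genotypes at 24 h (n = 3 each). The labels give no strain, sex, age or number of mice, no form of the Keap1 deletion and no Cre driver. They do not say whether replicates came from separate animals. The p-values below thus measure only the spread between replicate libraries, of 48 h and 24 h together, and part of it may be technical. Sex-linked transcripts, given below, differed between replicates within each group, so the replicates of a group were not all from the same mouse. The title of the series names activation-driven expansion and the use of glucose and glutamine as its subject.

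Keap1 is the adaptor of a ubiquitin ligase that keeps the transcription factor Nrf2 (gene Nfe2l2) at a low level by marking it for degradation. Oxidants and electrophiles modify cysteines of Keap1 and let Nrf2 accumulate, and Nrf2 with a small Maf protein then binds antioxidant response elements in genes for thioredoxin and glutathione metabolism, NADPH supply, quinone reduction and iron storage. CD4+ T cells that are stimulated through the T cell receptor (TCR) and CD28 leave rest, take up glucose and amino acids, divide, and begin to express the cytokines and receptors of helper subsets.

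The 48 h libraries held 17786533 to 22418032 expected counts. Rank correlation over genes (Spearman's rho, a description over genes of 1 sequencing experiment) was 0.993 to 0.996 between WT libraries and 0.996 between KKO replicates 1 and 3, but 0.989 and 0.992 between KKO replicate 2 and these, against 0.991, 0.991 and 0.992 between KKO replicate 2 and the 3 WT libraries. KKO replicate 2 thus stood about as near to the WT libraries as to its own group. Transcripts of the inactive X chromosome (Xist) and of the Y chromosome divided the libraries in another way: WT replicates 1 and 2 and KKO replicate 2 had Xist at 407, 505 and 288 CPM, WT replicate 3 and KKO replicate 1 had it at 0.285 and 0.0983 CPM with Y-linked transcripts at 154 and 181 CPM, and KKO replicate 3 had both (105.0 and 149 CPM). CPM are counts-per-million on library sizes scaled by the trimmed mean of M-values (TMM), and triplets of values follow the order of replicates 1, 2 and 3. The sex reading is thus not the same in both groups, and its part in the results was not tested beyond the fits named below.

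Markers of T cells were at like levels in both genotypes. Cd4, the coreceptor that defines these cells, was at 499.7, 492 and 488 CPM in the WT libraries and 469, 461 and 493 CPM in the KKO libraries, and Cd3e, a subunit of the TCR complex, was at 227, 240.3 and 232 CPM in the WT libraries and 231, 207 and 229 CPM in the KKO libraries; neither passed the test (-0.06, adjusted p = 0.463 and -0.07, adjusted p = 0.45, edgeR log2 fold changes). Of the 16 T cell identity genes tested, Cd2 was called higher and Cd6 lower, and their summed level was 5471 to 5641 CPM in WT and 5379 to 5724 CPM in KKO. Keap1 itself was at 124, 132 and 122 CPM in the WT libraries and 22.5, 20.7 and 20.2 CPM in the KKO libraries, 5.95-fold lower in KKO (log2 fold change -2.57 ± 0.06 (SE), adjusted p = 1.22e-12), with no overlap between the groups. The remaining signal was not mapped to exons in the count table, so transcripts that lack part of the gene cannot be told from whole ones. Nfe2l2 mRNA, which codes for Nrf2, was at 36.8, 38.9 and 41.1 CPM in the WT libraries and 39.2, 37.7 and 42.4 CPM in the KKO libraries and did not pass the test (0.03, adjusted p = 0.768).

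Of 13196 genes tested with edgeR's quasi-likelihood test, 3209 (24.3%) were called at an adjusted p under 0.05, 1635 higher in KKO (12.4%) and 1574 lower (11.9%). The changes were mostly small: the median absolute log2 fold change of called genes was 0.40, and 391 called genes were at least 2-fold higher and 170 at least 2-fold lower. Past 4-fold there were 84 higher and 34 lower genes. The libraries of the groups did not overlap for 2693 of the called genes (83.9%), beside 4385 of all 13196 genes tested (33.2%). The counts for gene lists below stand beside the shares of 12.4% higher and 11.9% lower, and a leave-one-out range given with one spans the 6 fits that each omit 1 library of 48 h. KKO replicate 2 was the less extreme of the KKO libraries: on the log2 scale, with 0 at the mean of WT replicates 1 and 2 and 1 at the mean of KKO replicates 1 and 3, its median place over called genes was 0.53 and that of WT replicate 3 was 0.23. Without KKO replicate 2, 5362 genes were called, and without KKO replicate 1, KKO replicate 3, WT replicate 1 or WT replicate 2 the count was 1405, 1659, 1719 or 1697. Without KKO replicate 3 and KKO replicate 1 at 24 h, the other library with Xist beside Y-linked transcripts, it was 1386, and with the Y-linked share as a covariate 2764. Within the libraries with Xist only (WT replicates 1 and 2, KKO replicate 2) 3207 of the 3209 called genes had the same direction, with a median absolute difference of 0.27. Within those with Y-linked transcripts only (WT replicate 3, KKO replicate 1) all 3209 did, with 0.44. This has no test since each set holds 1 KKO library. The genes were called with these same libraries, and 2693 of them had no overlap between the groups. The agreement in direction was thus largely fixed in advance, and it cannot say what part the sex reading has. In bulk RNA, fewer cells of a type and less RNA per cell cannot be told apart, and this holds for each level below.

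**Figure D1:**
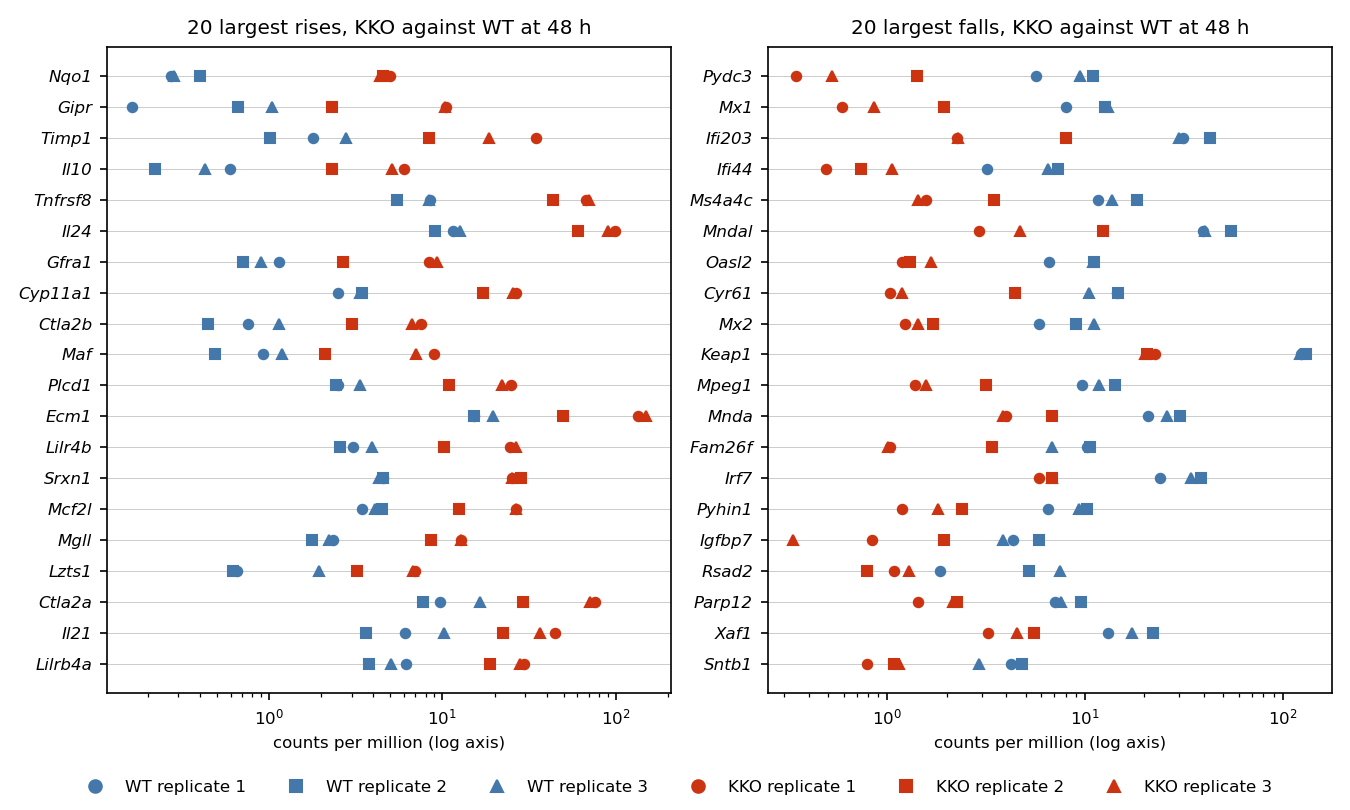
Level of the 20 genes with the largest rises and the 20 with the largest falls in KKO at 48 h, in counts-per-million on a log axis, 1 point per library (blue WT, red KKO; circle, square and triangle are replicates 1, 2 and 3). No gene shown has overlapping groups, and for most rises the KKO square (replicate 2) lies nearest to the WT points.

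The highest ranks among the rises were taken by genes of several kinds, with Nqo1, Gipr, Timp1, Il10, Tnfrsf8, Il24, Gfra1, Cyp11a1, Ctla2b, Maf, Plcd1, Ecm1, Lilr4b, Srxn1, Mcf2l, Mgll, Lzts1, Ctla2a, Il21 and Lilrb4a in that order (named where the mean was at least 2 CPM and the groups did not overlap). Their fitted changes ran from 2.36 to 3.83 on the log2 scale. They include the redox enzymes Nqo1 and Srxn1, the cytokines Il10, Il24 and Il21, the TNF receptor family member Tnfrsf8 (CD30), the leukocyte Ig-like receptors Lilr4b and Lilrb4a, the cysteine protease inhibitors Ctla2a and Ctla2b, and Mgll, which hydrolyses monoacylglycerols. Lilr4b with Lilrb4a, and Ctla2a with Ctla2b, are pairs of close copies on chromosomes 10 and 13, and the division of reads within each pair is uncertain. The falls ran from Pydc3 (-3.55) to Sntb1 (-1.98), and beside Keap1 and interferon-induced genes they held Mpeg1, a pore-forming protein first known from macrophages, and Cyr61 and Igfbp7, secreted proteins of the matrix. As the plot of the largest rises and falls shows, Keap1, Srxn1 and Nqo1 varied little within either group, whereas Gipr and Timp1 spread widely within KKO. Gipr, the receptor of an incretin hormone, was at 0.163, 0.663 and 1.04 CPM in the WT libraries and 10.5, 2.32 and 10.4 CPM in the KKO libraries (log2 fold change 3.59 ± 0.57 (SE), adjusted p = 0.00122). Timp1, an inhibitor of matrix metalloproteinases, was at 1.80, 1.02 and 2.80 CPM in the WT libraries and 34.9, 8.37 and 18.5 CPM in the KKO libraries (log2 fold change 3.47 ± 0.51 (SE), adjusted p = 0.00127). Both were highest in KKO replicate 1 and lowest in KKO replicate 2 within KKO, and above every WT library in each. Il24, a cytokine of the IL-10 family, was at 11.5, 9.06 and 12.7 CPM in WT and 99.2, 60.9 and 90.7 CPM in KKO (log2 fold change 2.92 ± 0.21, adjusted p = 8.82e-06). Tnfrsf8, the receptor CD30 of activated lymphocytes, was at 8.49, 5.48 and 8.35 CPM in WT and 67.2, 43.5 and 70.5 CPM in KKO (log2 fold change 3.03 ± 0.25, adjusted p = 2.98e-05). Again each KKO library was above each WT library. Il21 did not pass without WT replicate 1, WT replicate 2, KKO replicate 1 or KKO replicate 3, left out 1 at a time (adjusted p from 0.0702 to 0.0934). On the log2 scale, the fitted change of Timp1 was 2.85 without KKO replicate 1, that of Lzts1 3.14 without WT replicate 3, that of Pydc3 -4.32 without KKO replicate 2, that of Cyr61 -3.58 without KKO replicate 2 and that of Igfbp7 -3.01 without KKO replicate 2.

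Genes that Nrf2 is known to induce were mostly higher in KKO. Of 35 listed Nrf2 target genes tested, 21 were called higher, 1 lower and 13 in neither direction, beside 12.4% higher over all genes. Their median log2 fold change was 0.43, and that of all genes tested was -0.00420. A further 9 listed genes in the table were below the count filter. The number called higher ran from 16 to 23 when any 1 library of 48 h was left out, and was 16 without the 2 libraries with both sex readings (Xist beside Y-linked transcripts). KKO replicate 2 had a median place of 0.78 over the called members and WT replicate 3 one of 0.13.

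Antioxidant response elements are short DNA sites that Nrf2 binds. The core TGACNNNGC (either strand) was looked up in RefSeq promoter windows (build GRCm38.p6, 250 bases before to 50 after each start). Windows were found for 30 of the 35 tested Nrf2 target genes, and 11 of these (36.7%) held the core, beside 17.1% of 9420 tested genes with a window and 12.4% of all 32851 windows. The core stood in 5 of the 16 target genes called higher that had a window, in 5 of the 13 not called and in the 1 called lower, so a match did not follow the calls within the list. The stretches below are shown so that the letters can be compared between 5 genes called higher and Gclm and Prdx1, which were not called. Capitals mark the core, each stretch runs 5' to 3' on the strand of its gene, and capitals that open with GC and close with TCA hold the core on the opposite strand. The window of Nqo1 had no match, which says only that these letters are not in it. Ugdh did not pass without WT replicate 1, WT replicate 2, KKO replicate 1 or KKO replicate 3, left out 1 at a time (adjusted p from 0.0635 to 0.103).
Srxn1, chr2:152105532-152105573, + strand: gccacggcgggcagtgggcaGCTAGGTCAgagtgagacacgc
Me1, chr9:86695892-86695940, - strand: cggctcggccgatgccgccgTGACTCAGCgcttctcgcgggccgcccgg
Txnrd1, chr10:82859094-82859142, + strand: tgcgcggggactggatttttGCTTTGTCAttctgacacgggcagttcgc
G6pdx, chrX:74428909-74428957, - strand: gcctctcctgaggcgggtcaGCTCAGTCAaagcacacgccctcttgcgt
Ugdh, chr5:65435946-65435994, - strand: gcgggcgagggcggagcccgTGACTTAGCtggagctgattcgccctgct
Gclm, chr3:122245403-122245451, + strand: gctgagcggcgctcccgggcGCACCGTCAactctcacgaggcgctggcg
Prdx1, chr4:116685446-116685494, + strand: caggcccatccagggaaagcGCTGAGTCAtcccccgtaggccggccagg

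Enzymes that reduce quinones and oxidised thiols separated the genotypes in every library. Nqo1, which reduces quinones to hydroquinones, was at 0.272, 0.398 and 0.285 CPM in WT and 5.02, 4.53 and 4.34 CPM in KKO (log2 fold change 3.83 ± 0.22, adjusted p = 9.79e-08). Srxn1, which restores overoxidised peroxiredoxins, was at 4.57, 4.55 and 4.32 CPM in WT and 25.1, 28.6 and 25.3 CPM in KKO (log2 fold change 2.55 ± 0.09, adjusted p = 2.79e-10). Txnrd1, the cytosolic thioredoxin reductase, was at 216, 189 and 191 CPM in WT and 327, 385 and 339 CPM in KKO (log2 fold change 0.82 ± 0.07, adjusted p = 7.81e-06). In all 3 genes every KKO library was above every WT library, and KKO replicate 2 was within or above the range of the other KKO libraries. Of 18 thioredoxin, peroxiredoxin and sestrin genes tested, 6 rose and none fell (5 to 7 higher when any 1 library of 48 h was left out). Prdx1, Prdx2, Prdx3, Prdx4 and Prdx6, which reduce peroxides, were not called.

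A few glutathione genes rose. Of 25 tested, 5 rose and none fell, with a median of 0.10, beside 12.4% higher over all genes (leave-one-out range 3 to 5 higher, fewest without WT replicate 1, KKO replicate 1 or KKO replicate 3, and 0 to 4 lower, most without KKO replicate 2). Gsr, glutathione reductase, was at 68.8, 69.4 and 67.6 CPM in WT and 103, 101 and 103 CPM in KKO (log2 fold change 0.57 ± 0.06, adjusted p = 2.36e-05). Gclc, the catalytic subunit of the first enzyme of glutathione synthesis, was at 38.2, 34.4 and 35.2 CPM in WT and 46.7, 53.4 and 47.4 CPM in KKO (log2 fold change 0.45 ± 0.06, adjusted p = 0.000213). Gpx4, which reduces lipid peroxides, was at 182, 189.9 and 206 CPM in WT and 279, 242 and 263 CPM in KKO (log2 fold change 0.44 ± 0.08, adjusted p = 0.00224). The groups did not overlap for these 3 genes. Gclm, the modifier subunit that pairs with Gclc, was at 28.7, 28.8 and 29.7 CPM in WT and 24.8, 31.9 and 26.3 CPM in KKO (log2 fold change -0.07 ± 0.09, adjusted p = 0.582). Slc7a11, the cystine importer that feeds this pathway, was at 11.6, 9.64 and 8.78 CPM in WT and 9.39, 9.45 and 9.64 CPM in KKO (log2 fold change -0.07 ± 0.11, adjusted p = 0.677). The groups overlapped for Gclm and Slc7a11 and neither passed the test.

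Some genes for NADPH supply, metal binding and iron storage rose, and most in these lists were not called. Of 16 genes for NADPH supply, 6 rose and 2 fell (leave-one-out range 5 to 6 higher, and 0 to 5 lower, fewest without KKO replicate 1 and most without KKO replicate 2), and of 18 genes of iron and haem 6 rose and 2 fell, with a median of 0.03 (leave-one-out range 5 to 6 higher, and 0 to 4 lower, fewest without WT replicate 1, WT replicate 2, KKO replicate 1 or KKO replicate 3 and most without KKO replicate 2). G6pdx, the entry enzyme of the pentose phosphate pathway, was at 118, 109 and 104 CPM in WT and 170.3, 168 and 159 CPM in KKO (log2 fold change 0.59 ± 0.06, adjusted p = 2.54e-05). Me1, malic enzyme, was at 0.326, 0.0884 and 0.285 CPM in WT and 2.85, 1.53 and 2.53 CPM in KKO (log2 fold change 3.32 ± 0.45, adjusted p = 0.000204). KKO replicate 2 was the lowest KKO library for Me1, above the WT libraries. Mt2, a metallothionein that binds zinc and copper, was at 22.6, 23.3 and 39.9 CPM in WT and 173, 79.4 and 113 CPM in KKO (log2 fold change 2.09 ± 0.33, adjusted p = 0.00253). Ftl1, the ferritin light chain, was at 441, 430.1 and 467 CPM in WT and 1166, 1036 and 1079.7 CPM in KKO (log2 fold change 1.29 ± 0.07, adjusted p = 9.79e-08). Hmox1, the oxygenase that breaks down haem, was at 7.13, 6.23 and 9.01 CPM in WT and 21.5, 15.2 and 16.98 CPM in KKO (log2 fold change 1.26 ± 0.15, adjusted p = 6.81e-05). All KKO libraries exceeded all WT libraries for Mt2, Ftl1 and Hmox1. Ferritin genes have processed pseudogenes, so the division of their reads is uncertain. Of 12 listed antioxidant enzymes 7 rose and none fell, and the count higher was 7 without any 1 library of 48 h.

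**Figure D2:**
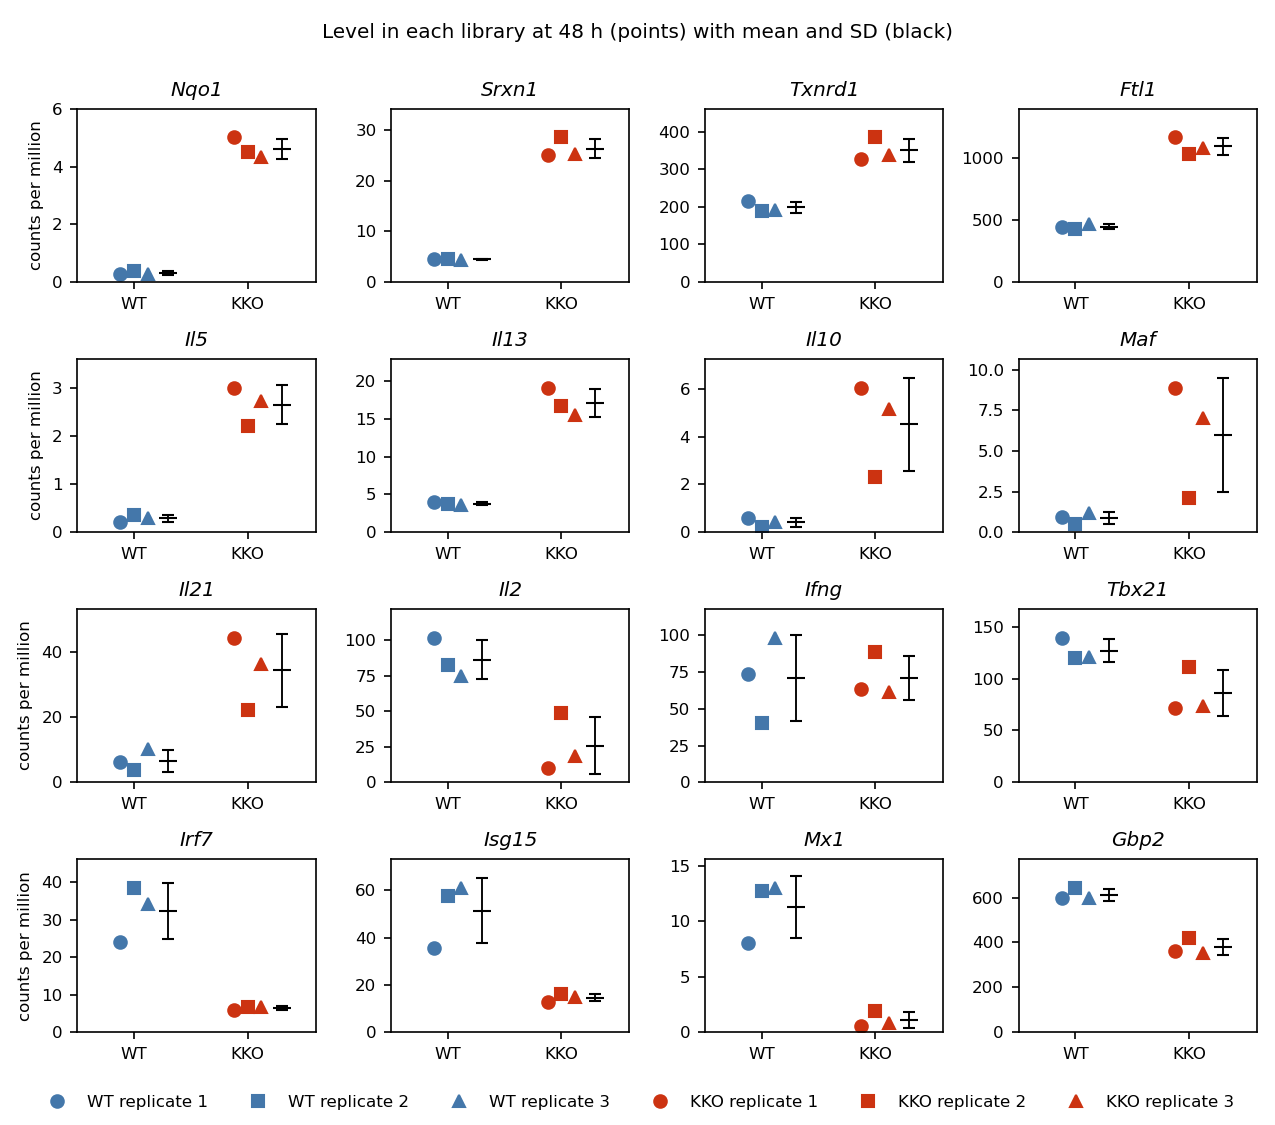
Level of 16 genes in each library at 48 h, in counts-per-million on linear axes from 0 (blue WT, red KKO; circle, square and triangle are replicates 1, 2 and 3), with mean and SD in black (n = 3). Nqo1, Srxn1 and Txnrd1 have KKO replicate 2 beside the other KKO libraries, Il10, Maf, Il21, Il2 and Tbx21 have it between the groups, and the groups overlap for Ifng.

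Type 2 helper genes and genes around IL-10, Maf and the aryl hydrocarbon receptor were higher in KKO. Of 21 Th2 genes tested 12 were called higher and none lower (median 0.76). Of 20 genes of the IL-10 group 15 were higher and none lower (median 1.21), and Il10 and Maf are in both lists. When any 1 library of 48 h was left out, the counts higher were 9 to 12 and 13 to 17. The median place of KKO replicate 2 was 0.85 in the Th2 list and 0.56 in the IL-10 list.

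Within the type 2 cytokine locus on chromosome 11 the members differed. Il5, the eosinophil growth factor, was at 0.218, 0.354 and 0.285 CPM in WT and 2.999, 2.21 and 2.72 CPM in KKO (log2 fold change 3.17 ± 0.37, adjusted p = 5.81e-05). Il13, which acts on mucosal epithelium, was at 4.03, 3.76 and 3.56 CPM in WT and 19.1, 16.7 and 15.5 CPM in KKO (log2 fold change 2.18 ± 0.16, adjusted p = 2.26e-06). Il4, which drives the type 2 fate and IgE, was at 2.50, 2.34 and 1.33 CPM in WT and 2.51, 5.26 and 2.72 CPM in KKO (log2 fold change 0.76 ± 0.30, adjusted p = 0.082). The groups were far apart for Il5 and Il13, whereas for Il4 the highest WT and the lowest KKO library nearly met and the gene did not pass the test. Gata3, the transcription factor that defines the subset, was at 118, 103 and 92.2 CPM in WT and 138, 171 and 150.3 CPM in KKO (log2 fold change 0.55 ± 0.10, adjusted p = 0.00153). Ccr4, a chemokine receptor of Th2 and regulatory cells, was at 83.7, 75.5 and 77.95 CPM in WT and 159, 149.7 and 168 CPM in KKO (log2 fold change 1.01 ± 0.08, adjusted p = 3.45e-06). Nfil3, a basic leucine zipper factor of helper T cells, was at 84.1, 80.6 and 94.4 CPM in WT and 195, 152 and 190.3 CPM in KKO (log2 fold change 1.05 ± 0.14, adjusted p = 0.000404). Every KKO library exceeded every WT library for these 3 genes, and KKO replicate 2 was the highest of the 6 for Gata3. Il4ra, the IL-4 receptor chain, rose by 0.51 (adjusted p = 0.00131).

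Il10 and its regulators rose in all KKO libraries, least in KKO replicate 2. Il10, an anti-inflammatory cytokine, was at 0.598, 0.221 and 0.427 CPM in WT and 6.05, 2.32 and 5.15 CPM in KKO (log2 fold change 3.46 ± 0.47, adjusted p = 0.000227). Maf, a transcription factor that drives Il10 and Il4, was at 0.925, 0.486 and 1.19 CPM in WT and 8.90, 2.09 and 7.01 CPM in KKO (log2 fold change 2.81 ± 0.48, adjusted p = 0.00179). Ahr, the aryl hydrocarbon receptor, was at 3.10, 1.99 and 3.65 CPM in WT and 11.7, 5.83 and 10.9 CPM in KKO (log2 fold change 1.71 ± 0.27, adjusted p = 0.000966). No group overlapped for these 3 genes. Prdm1, the repressor Blimp-1 of effector cells, was at 1.41, 1.41 and 1.28 CPM in WT and 4.87, 2.89 and 4.05 CPM in KKO (log2 fold change 1.52 ± 0.27, adjusted p = 0.00162). Batf, an AP-1 factor of cytokine-producing helper cells, was at 52.3, 42.2 and 43.98 CPM in WT and 88.6, 94.3 and 91.6 CPM in KKO (log2 fold change 0.99 ± 0.10, adjusted p = 3.31e-05). Il21, a cytokine of follicular and type 17 helper cells, was at 6.09, 3.63 and 10.2 CPM in WT and 44.4, 22.2 and 36.4 CPM in KKO (log2 fold change 2.37 ± 0.60, adjusted p = 0.0229). The KKO libraries lay above the WT libraries for each, and Batf differed from the other genes in having KKO replicate 2 as its highest library. Il22, an IL-10 family cytokine that acts on epithelium, rose by 2.20 (adjusted p = 0.00788). Cyp1a1 and Ahrr, classical targets of Ahr, were near 0 in both groups (at most 0.265 CPM) and not called.

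Genes of other helper subsets moved in both directions. Of 9 type 17 genes 6 rose and 1 fell (leave-one-out range 4 to 7 higher). Ccr6, a chemokine receptor of that subset, was at 3.48, 4.38 and 4.03 CPM in WT and 0.885, 1.58 and 0.859 CPM in KKO (log2 fold change -1.85 ± 0.29, adjusted p = 0.000556). Ccr6 fell, and the groups did not overlap. Of 20 regulatory T cell genes 10 rose and 1 fell, and the count higher was 5 to 13 when any 1 library of 48 h was left out, fewest without KKO replicate 3. Il2ra, the high-affinity IL-2 receptor chain, was at 1144, 1089 and 1173 CPM in WT and 1941, 1599.6 and 1947 CPM in KKO (log2 fold change 0.69 ± 0.08, adjusted p = 6.81e-05). Ctla4, an inhibitory receptor, was at 155, 192 and 285 CPM in WT and 482, 258 and 418 CPM in KKO (log2 fold change 0.87 ± 0.26, adjusted p = 0.0405). Foxp3, the factor that defines regulatory T cells, was at 3.21, 2.17 and 2.99 CPM in WT and 5.26, 2.26 and 3.91 CPM in KKO (log2 fold change 0.47 ± 0.24, adjusted p = 0.162). The groups were apart for Il2ra and overlapped for Ctla4 and Foxp3, and Foxp3 did not pass the test. Ctla4 did not pass without WT replicate 1, WT replicate 2, KKO replicate 1 or KKO replicate 3, left out 1 at a time (adjusted p from 0.101 to 0.18).

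Type 1 helper and follicular helper genes were mixed. Of 25 Th1 and cytotoxic genes 9 fell and 5 rose, with 12 changes negative and 13 positive among all tested (leave-one-out range 2 to 7 higher, fewest without WT replicate 2, KKO replicate 1 or KKO replicate 3, and 7 to 10 lower). Of 16 follicular genes 7 fell and 4 rose (leave-one-out range 3 to 6 higher, and 6 to 8 lower). Eomes, a T-box factor of cytotoxic and memory cells, was at 40.5, 55.6 and 37.4 CPM in WT and 10.7, 18.2 and 14.1 CPM in KKO (log2 fold change -1.64 ± 0.24, adjusted p = 0.00131). Tbx21, the T-box factor T-bet of type 1 cells, was at 139.6, 119.7 and 121 CPM in WT and 71.9, 111 and 74.1 CPM in KKO (log2 fold change -0.57 ± 0.14, adjusted p = 0.0127). Stat4, which carries the IL-12 signal, was at 247, 231 and 212 CPM in WT and 128, 169 and 125 CPM in KKO (log2 fold change -0.71 ± 0.09, adjusted p = 0.000209). All KKO libraries were below all WT libraries for these 3 genes, and for Tbx21 KKO replicate 2 was close to WT. Hlx, a homeobox factor that works with T-bet, was at 0.979, 0.442 and 1.19 CPM in WT and 5.75, 2.21 and 3.77 CPM in KKO (log2 fold change 2.18 ± 0.49, adjusted p = 0.00692). Gzma, the protease granzyme A of cytotoxic granules, was at 9.95, 4.42 and 4.03 CPM in WT and 28.6, 14.7 and 27.3 CPM in KKO (log2 fold change 1.96 ± 0.46, adjusted p = 0.0147). Ifng, interferon gamma, was at 73.98, 40.5 and 98.4 CPM in WT and 63.5, 88.4 and 61.6 CPM in KKO (log2 fold change 0.00 ± 0.34, adjusted p = 0.995). Hlx and Gzma rose without overlap, and the groups overlapped for Ifng. Cd40lg, the ligand by which T cells help B cells, was at 59.7, 60.1 and 61.3 CPM in WT and 27.2, 36.5 and 28.3 CPM in KKO (log2 fold change -0.98 ± 0.09, adjusted p = 1.18e-05). Tox, an HMG-box factor of follicular and exhausted cells, was at 24.9, 28.6 and 25.2 CPM in WT and 7.47, 14.2 and 9.35 CPM in KKO (log2 fold change -1.35 ± 0.17, adjusted p = 0.000194). Cxcr5, the receptor that guides cells to B cell follicles, was at 4.35, 3.63 and 5.46 CPM in WT and 12.2, 11.7 and 12.2 CPM in KKO (log2 fold change 1.43 ± 0.17, adjusted p = 6.59e-05). Cxcr5 thus rose while Cd40lg and Tox fell, with no overlap in any. Bcl6, the factor that defines follicular helper cells, fell by 0.76 (adjusted p = 0.00561). Tbx21 did not pass without WT replicate 1, KKO replicate 1 or KKO replicate 3, left out 1 at a time (adjusted p from 0.0575 to 0.0658). Gzma did not pass without WT replicate 2, KKO replicate 1 or KKO replicate 3, left out 1 at a time (adjusted p from 0.0525 to 0.0666).

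Interferon-induced genes were mostly lower in KKO. Of 48 interferon-stimulated genes tested, 40 were lower, 2 higher and 6 not called (median -1.01), beside 11.9% lower over all genes. Of 18 genes for guanylate-binding proteins (Gbp) and immunity-related GTPases, which attack vacuoles of intracellular microbes, 15 were lower and none higher (median -0.94). All 7 genes tested of the PYHIN family, sensors and regulators encoded in a cluster on chromosome 1, were lower (median -2.71). The counts lower were 35 to 41, 15 to 16 and 7 to 7 when any 1 library of 48 h was left out. KKO replicate 2 had a median place of 0.77 over the called interferon-stimulated genes. Over the 48 tested, the median log2 difference between KKO and WT was -0.82 among the libraries with Xist only (WT replicates 1 and 2, KKO replicate 2). It was -1.13 among those with Y-linked transcripts only (WT replicate 3, KKO replicate 1). Each set holds 1 KKO library, and 40 of these genes were called lower with the same libraries. The shared sign was thus largely fixed in advance and has no test.

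The falls included antiviral effectors and sensors. Mx1, the gene of an antiviral GTPase, is a transcribed pseudogene in the mouse reference annotation, so a working protein cannot be assumed here. Its transcript was at 8.05, 12.7 and 13.0004 CPM in WT and 0.59, 1.92 and 0.859 CPM in KKO (log2 fold change -3.35 ± 0.38, adjusted p = 7.98e-05). Ifit3, an antiviral protein of the IFIT family, was at 0.762, 2.34 and 2.18 CPM in WT and 0.148, 0.339 and 0.191 CPM in KKO (log2 fold change -2.98 ± 0.50, adjusted p = 0.0011). Isg15, a ubiquitin-like modifier, was at 35.6, 57.5 and 61.02 CPM in WT and 12.98, 16.1 and 14.98 CPM in KKO (log2 fold change -1.81 ± 0.18, adjusted p = 3.53e-05). Slfn1, a Schlafen protein of T cells, was at 59.7, 82.4 and 74.9 CPM in WT and 18.1, 25.97 and 22.6 CPM in KKO (log2 fold change -1.71 ± 0.13, adjusted p = 5.41e-06). Each KKO library was below each WT library. Ifih1, the RNA sensor MDA5, was at 55.5, 63.2 and 64.1 CPM in WT and 18.5, 26.5 and 20.99 CPM in KKO (log2 fold change -1.47 ± 0.12, adjusted p = 6.78e-06). Zbp1, a sensor of Z-form nucleic acids, was at 77.02, 107 and 99.97 CPM in WT and 41.6, 51.2 and 41.9 CPM in KKO (log2 fold change -1.08 ± 0.12, adjusted p = 0.000129). Trim30a, a tripartite motif protein, was at 154, 208 and 194 CPM in WT and 63.1, 80.3 and 79.4 CPM in KKO (log2 fold change -1.32 ± 0.12, adjusted p = 2.01e-05). In these too the groups did not overlap. The close relative Ddx58, the RNA sensor RIG-I, was not called (-0.27, adjusted p = 0.108), nor were Samhd1, Ifitm2 and Dhx58. Ly6a and Ly6e, which code for surface proteins that interferon also induces, rose by 0.46 and 0.28 (adjusted p = 0.014 and 0.00489). Ly6a did not pass without WT replicate 1, KKO replicate 1 or KKO replicate 3, left out 1 at a time (adjusted p from 0.0568 to 0.0708). On the log2 scale, the fitted change of Mx1 was -3.96 without KKO replicate 2.

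The Gbp genes of 2 clusters fell with exceptions. On chromosome 3 Gbp2, Gbp3, Gbp5 and Gbp7 were lower, and on chromosome 5 Gbp4, Gbp6, Gbp9 and Gbp10 were lower while Gbp8 and Gbp11 were not called. Gbp2 was at 596, 643 and 598 CPM in WT and 363, 419 and 355 CPM in KKO (log2 fold change -0.69 ± 0.07, adjusted p = 3.16e-05). Gbp10 was at 39.7, 47.97 and 43.1 CPM in WT and 12.1, 14.9 and 16.6 CPM in KKO (log2 fold change -1.58 ± 0.11, adjusted p = 7.98e-07). Gbp8 was at 13.2, 15.6 and 16.04 CPM in WT and 16.2, 13.6 and 19.1 CPM in KKO (log2 fold change 0.13 ± 0.15, adjusted p = 0.579). The groups were apart for Gbp2 and Gbp10 and overlapped for Gbp8. Iigp1, an immunity-related GTPase, was at 179, 202 and 147 CPM in WT and 33.9, 89.0012 and 38.9 CPM in KKO (log2 fold change -1.72 ± 0.32, adjusted p = 0.00626). Irgm1, a regulator of that family, was at 143, 152 and 123 CPM in WT and 52.1, 99.2 and 57.8 CPM in KKO (log2 fold change -1.005 ± 0.20, adjusted p = 0.00586). KKO replicate 2 lay between the other KKO libraries and WT for Iigp1 and Irgm1. Close copies share reads in this family (Tgtp1 with Tgtp2, and the Gbp genes), so single values are less certain than the group. In the PYHIN cluster, Mnda was at 20.9, 30.2 and 26.05 CPM in WT and 3.98, 6.85 and 3.86 CPM in KKO (log2 fold change -2.41 ± 0.21, adjusted p = 1.34e-05), and Aim2, the DNA sensor of the inflammasome, was at 19.9, 17.02 and 15.7 CPM in WT and 11.3, 13.7 and 12.4 CPM in KKO (log2 fold change -0.49 ± 0.11, adjusted p = 0.00482). Both fell, with no overlap between the groups.

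Factors and receptors of interferon and STAT signalling moved in both directions. Of 29 such genes tested 12 fell and 8 rose, with a median of -0.09, beside 11.9% lower and 12.4% higher over all genes (leave-one-out range 3 to 8 higher, fewest without KKO replicate 1, and 9 to 13 lower). Irf7, which amplifies type I interferon, was at 24.1, 38.5 and 34.2 CPM in WT and 5.85, 6.79 and 6.82 CPM in KKO (log2 fold change -2.32 ± 0.17, adjusted p = 2.72e-06). Irf1, which responds to interferon gamma, was at 200.1, 208 and 179.9 CPM in WT and 109, 142 and 107 CPM in KKO (log2 fold change -0.71 ± 0.09, adjusted p = 0.000163). The groups did not overlap for either. Irf9 and Stat2, members of the complex ISGF3, fell by 0.48 and 0.50 (adjusted p = 0.000186 and 0.00173), whereas Irf3, Tyk2 and Jak1 were not called. Socs1, a feedback inhibitor of cytokine signals, was at 138, 136 and 126 CPM in WT and 187, 178 and 176 CPM in KKO (log2 fold change 0.44 ± 0.07, adjusted p = 0.000871). Socs3, another inhibitor, which acts on receptors of the IL-6 family, was at 84.3, 75.3 and 107 CPM in WT and 297, 172 and 284 CPM in KKO (log2 fold change 1.50 ± 0.26, adjusted p = 0.00427). Both inhibitors were higher in all KKO libraries. The receptor chain Ifnar1 of type I interferon fell by 0.28, and the chains Ifngr1 and Ifngr2 of the interferon gamma receptor rose by 0.39 and 0.33 (adjusted p = 0.00432, 0.0403 and 0.0042). Ifngr1 did not pass without WT replicate 1, WT replicate 2, KKO replicate 1 or KKO replicate 3, left out 1 at a time (adjusted p from 0.128 to 0.166).

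The interferon-stimulated response element, a site for ISGF3 and interferon regulatory factors, was looked up as GAAANNGAAA (either strand) in the same windows. It stood in 86 of 1199 genes called lower with a window (7.17%), in 41 of 1242 called higher (3.30%) and in 221 of 6979 not called (3.17%), beside 3.69% of the 9420 tested genes and 3.44% of all windows. Among interferon-stimulated genes 16 of 34 (47.1%) held it, 13 of the 29 called lower and 3 of the 5 not called, and among Gbp and immunity-related GTPase genes 9 of 9, all called lower. No window of the 30 Nrf2 target genes held it. The stretches below show it for 8 genes called lower and for Socs1, which was higher. Capitals mark an element, which reads TTTC at its start where it lies on the opposite strand. The stretches of Ifit1, Isg15 and Socs1 hold further matches, partly or wholly in lower case.
Ifit1, chr19:34640765-34640814, + strand: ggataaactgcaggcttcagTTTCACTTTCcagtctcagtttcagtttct
Isg15, chr4:156200867-156200916, - strand: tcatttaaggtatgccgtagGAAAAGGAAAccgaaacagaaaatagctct
Rsad2, chr12:26456543-26456592, - strand: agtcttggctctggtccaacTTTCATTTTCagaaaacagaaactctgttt
Gbp2, chr3:142620584-142620633, + strand: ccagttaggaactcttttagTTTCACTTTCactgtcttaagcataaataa
Igtp, chr11:58199502-58199551, + strand: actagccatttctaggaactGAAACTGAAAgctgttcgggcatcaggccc
Irgm2, chr11:58214893-58214942, + strand: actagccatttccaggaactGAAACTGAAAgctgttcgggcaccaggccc
Tgtp1, chr11:48992294-48992343, - strand: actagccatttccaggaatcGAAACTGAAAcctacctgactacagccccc
Tgtp2, chr11:49064253-49064302, - strand: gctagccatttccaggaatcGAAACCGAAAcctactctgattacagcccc
Socs1, chr16:10785590-10785639, - strand: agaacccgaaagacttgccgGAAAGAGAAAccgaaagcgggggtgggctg

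Antigen presentation through MHC class I fell in its loading machinery, while abundant heavy chains were not called. Of 24 genes 11 fell and none rose (leave-one-out range 9 to 13 lower). Tapbp, tapasin, which loads peptide, was at 275, 334 and 283 CPM in WT and 131, 179 and 152 CPM in KKO (log2 fold change -0.95 ± 0.10, adjusted p = 4e-05). Nlrc5, the transactivator of class I genes, was at 129.5, 146 and 122 CPM in WT and 61.9, 81.7 and 71.7 CPM in KKO (log2 fold change -0.88 ± 0.10, adjusted p = 0.000113). Tap1, a subunit of the peptide transporter, was at 453, 489 and 472 CPM in WT and 335, 366 and 351 CPM in KKO (log2 fold change -0.43 ± 0.06, adjusted p = 0.000197). The groups did not overlap for these 3 genes. The class I chains H2-K1 (-0.10, adjusted p = 0.207) and H2-D1 (-0.06, adjusted p = 0.459) and B2m (-0.14, adjusted p = 0.153) were not called. Class II genes, which mouse T cells express little, are given with the markers of other cells.

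**Figure D3:**
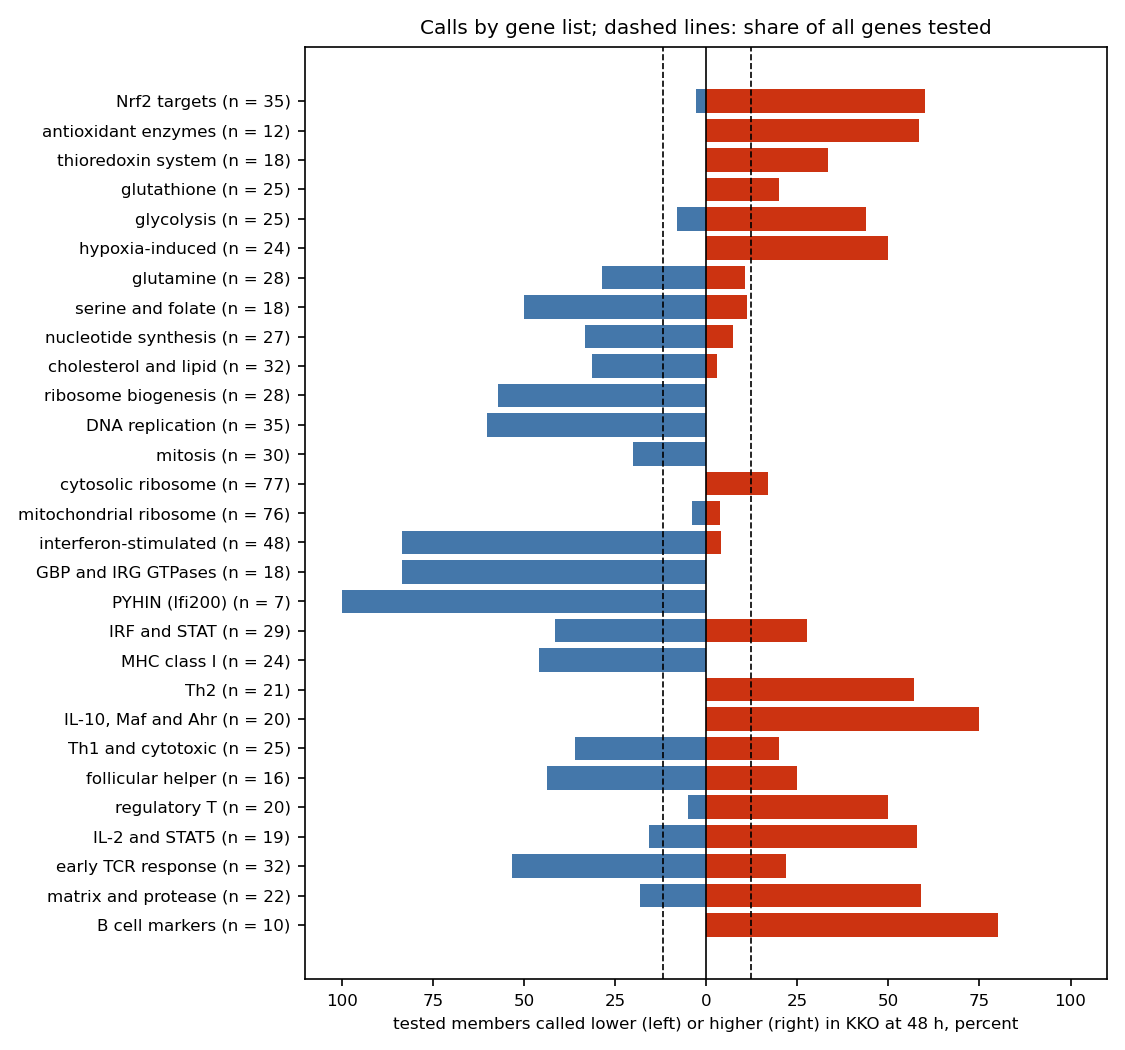
Percent of the tested genes of each list called higher (red, to the right) and lower (blue, to the left) in KKO at 48 h, with n the genes tested and dashed lines at the shares of all genes (12.4% higher and 11.9% lower). Interferon, Gbp and PYHIN lists lie to the lower side, and Nrf2 targets, antioxidant enzymes, Th2 and IL-10 lists to the higher side.

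Many immediate targets of TCR signalling were lower in KKO at 48 h. Of 32 early response genes 17 fell and 7 rose, with 14 to 19 lower and 2 to 7 higher when any 1 library of 48 h was left out. Nr4a1, the orphan receptor Nur77 that reports TCR signal strength, was at 433, 452 and 458 CPM in WT and 234, 278 and 236 CPM in KKO (log2 fold change -0.84 ± 0.08, adjusted p = 8.82e-06). Nr4a3, a relative of Nur77, was at 630.0, 657 and 621 CPM in WT and 221, 368 and 242 CPM in KKO (log2 fold change -1.20 ± 0.16, adjusted p = 0.000453). Egr3, a zinc finger factor downstream of calcium and ERK, was at 83.8, 87.9 and 90.8 CPM in WT and 41.6, 56.4 and 41.7 CPM in KKO (log2 fold change -0.91 ± 0.10, adjusted p = 6.59e-05). All KKO libraries were below all WT libraries. Cd69, an early surface marker of activation, was at 73.3, 90.5 and 83.8 CPM in WT and 38.6, 45.2 and 35.2 CPM in KKO (log2 fold change -1.06 ± 0.09, adjusted p = 4.95e-06). Rel, the NF-kB subunit c-Rel, was at 77.3, 76.5 and 66.7 CPM in WT and 35.4, 49.2 and 37.7 CPM in KKO (log2 fold change -0.85 ± 0.12, adjusted p = 0.000556). Myc, which drives growth of activated T cells, was at 698, 684 and 631 CPM in WT and 444, 574 and 459 CPM in KKO (log2 fold change -0.45 ± 0.09, adjusted p = 0.00232). Again the groups did not overlap, and KKO replicate 2 was the KKO library nearest to WT.

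The 7 rises in the same list were Ier3, Fosl2, Zfp36, Btg2, Junb, Tnfaip3 and Nfatc2. Ier3, a stress-responsive regulator of cell survival, was at 27.1, 38.9 and 50.1 CPM in WT and 95.7, 53.8 and 80.8 CPM in KKO (log2 fold change 0.99 ± 0.27, adjusted p = 0.0253). Ier3 was above WT in each KKO library, least in KKO replicate 2. Junb, an AP-1 subunit, was at 858, 921 and 1097 CPM in WT and 1393, 1101 and 1250.0 CPM in KKO (log2 fold change 0.38 ± 0.10, adjusted p = 0.0184). Fosl2, a Fos-related AP-1 subunit, was at 152, 154 and 209.8 CPM in WT and 359, 225 and 319 CPM in KKO (log2 fold change 0.81 ± 0.20, adjusted p = 0.0178). Tnfaip3, the NF-kB inhibitor A20, was at 103, 113 and 111 CPM in WT and 151, 129 and 144 CPM in KKO (log2 fold change 0.38 ± 0.06, adjusted p = 0.000966). The groups were apart for Tnfaip3 and Fosl2 and nearly met for Junb. ERK feedback genes were mixed, 5 of 17 lower and 3 higher (leave-one-out range 1 to 3 higher, fewest without WT replicate 1, WT replicate 2 or KKO replicate 1, and 2 to 8 lower, fewest without WT replicate 1, KKO replicate 1 or KKO replicate 3 and most without KKO replicate 2). Spry1, an inhibitor of ERK signalling, was at 71.6, 74.7 and 72.8 CPM in WT and 34.5, 47.8 and 35.3 CPM in KKO (log2 fold change -0.90 ± 0.09, adjusted p = 3.46e-05). Dusp6, a phosphatase of ERK, was at 38.1, 40.3 and 45.03 CPM in WT and 28.1, 29.6 and 24.7 CPM in KKO (log2 fold change -0.59 ± 0.10, adjusted p = 0.00125). Both fell without overlap. Ier3, Fosl2, Btg2 and Junb did not pass without WT replicate 1, WT replicate 2, KKO replicate 1 or KKO replicate 3, left out 1 at a time (adjusted p from 0.056 to 0.162).

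IL-2 itself fell while chains of its receptor and targets of Stat5 rose. Il2, the growth factor of activated T cells, was at 102, 82.8 and 74.8 CPM in WT and 10.03, 48.7 and 18.7 CPM in KKO (log2 fold change -1.76 ± 0.44, adjusted p = 0.0227). Il2rb, the signalling chain shared with IL-15, was at 554, 577 and 640.0 CPM in WT and 867, 724 and 870.4 CPM in KKO (log2 fold change 0.47 ± 0.09, adjusted p = 0.00182). Il7r, the IL-7 receptor chain, was at 19.6, 21.6 and 24.4 CPM in WT and 60.9, 38.9 and 61.3 CPM in KKO (log2 fold change 1.29 ± 0.16, adjusted p = 0.000163). The groups did not overlap, and KKO replicate 2 had the smallest fall of Il2. Of 19 genes of this axis 11 rose and 3 fell (5 to 11 higher when any 1 library was left out, fewest without KKO replicate 1). Il15ra, the IL-15 receptor chain, was at 32.6, 34.7 and 33.5 CPM in WT and 15.9, 21.5 and 14.1 CPM in KKO (log2 fold change -0.97 ± 0.12, adjusted p = 7.98e-05). Bcl2, an inhibitor of apoptosis induced by IL-2 and IL-7, was at 158, 177 and 212 CPM in WT and 293, 213 and 315 CPM in KKO (log2 fold change 0.59 ± 0.14, adjusted p = 0.0116). Il15ra fell in all KKO libraries, and the KKO libraries for Bcl2 were all above WT. Il2 did not pass without WT replicate 1, WT replicate 2 or KKO replicate 3, left out 1 at a time (adjusted p from 0.0599 to 0.0907). Bcl2 did not pass without KKO replicate 1 or KKO replicate 3, left out 1 at a time (adjusted p from 0.0535 to 0.0687). On the log2 scale, the fitted change of Il2 was -2.60 without KKO replicate 2.

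Of the glycolysis and hypoxia genes, some rose in KKO, and the number depended on single libraries. Of 25 glycolytic genes 11 rose and 2 fell (median 0.28), and of 24 genes that the factor Hif-1 induces or that control it 12 rose and none fell (median 0.48). When any 1 library of 48 h was left out the counts higher were 4 to 14 and 4 to 15, fewest without KKO replicate 1 in both, and without the 2 libraries with both sex readings they were 4 and 2. Gapdh, an enzyme of late glycolysis, was at 9265, 9789.9 and 10582 CPM in WT and 13497, 11212 and 12017 CPM in KKO (log2 fold change 0.31 ± 0.09, adjusted p = 0.0214). Hk2, the inducible hexokinase, was at 289, 289.9 and 317 CPM in WT and 381, 370.0 and 382 CPM in KKO (log2 fold change 0.34 ± 0.07, adjusted p = 0.00496). Ldha, lactate dehydrogenase A, was at 3583, 3653 and 3728 CPM in WT and 4255, 3982 and 3737 CPM in KKO (log2 fold change 0.13 ± 0.08, adjusted p = 0.287). The groups were apart for Gapdh and Hk2, and Ldha was not called. Hif1a, the oxygen-regulated subunit of Hif-1, was at 487, 479.8 and 556 CPM in WT and 701, 587 and 739 CPM in KKO (log2 fold change 0.41 ± 0.10, adjusted p = 0.00881). Ero1l, an oxidase of disulfide formation that hypoxia induces, was at 329.8, 397 and 543 CPM in WT and 1090.1, 662 and 983 CPM in KKO (log2 fold change 1.11 ± 0.20, adjusted p = 0.00432). Egln3, a prolyl hydroxylase that marks Hif-1 for degradation, was at 215, 284 and 416 CPM in WT and 717, 454 and 614 CPM in KKO (log2 fold change 0.97 ± 0.32, adjusted p = 0.0573). In all 3 the KKO libraries were above the WT libraries, with WT replicate 3 the highest of WT, and Egln3 missed the threshold. Gapdh did not pass without WT replicate 1, WT replicate 2, KKO replicate 1 or KKO replicate 3, left out 1 at a time (adjusted p from 0.0558 to 0.112).

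Glutamine, serine, folate and nucleotide genes leaned to the lower side. Of 28 glutamine genes 8 fell and 3 rose, of 18 serine and folate genes 9 fell and 2 rose, of 27 nucleotide synthesis genes 9 fell and 2 rose, and of 17 amino acid transporters 6 fell and 1 rose. Slc1a5, a glutamine transporter, was at 303, 305 and 273 CPM in WT and 196, 255 and 222 CPM in KKO (log2 fold change -0.39 ± 0.09, adjusted p = 0.00554). Gls2, the liver-type glutaminase, was at 29.6, 30.4 and 36.8 CPM in WT and 54.7, 38.98 and 49.6 CPM in KKO (log2 fold change 0.57 ± 0.14, adjusted p = 0.0108). Slc1a5 fell and Gls2 rose without overlap. Tyms, which makes thymidylate, was at 80.3, 76.9 and 66.2 CPM in WT and 51.04, 69.8 and 50.7 CPM in KKO (log2 fold change -0.38 ± 0.10, adjusted p = 0.0185). KKO replicate 2 was the KKO library nearest to WT and lay inside the WT range. The counts lower when any 1 library of 48 h was left out were 1 to 10 for glutamine, 1 to 12 for serine and folate, 1 to 14 for nucleotides and 2 to 9 for transporters. Gls2 did not pass without KKO replicate 1 (adjusted p = 0.0567). Tyms did not pass without WT replicate 1, WT replicate 2, KKO replicate 1 or KKO replicate 3, left out 1 at a time (adjusted p from 0.0812 to 0.0977).

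Some genes of sterol synthesis fell and some of fatty acid oxidation rose, and most of both lists were not called. Of 32 sterol and lipid synthesis genes 10 fell and 1 rose (leave-one-out range 6 to 15 lower, fewest without KKO replicate 1). Idi1, which makes dimethylallyl diphosphate, was at 431, 421 and 354 CPM in WT and 228, 338 and 246 CPM in KKO (log2 fold change -0.57 ± 0.13, adjusted p = 0.00897). Dhcr7, which carries out the last step of cholesterol synthesis, was at 68.5, 65.9 and 61.97 CPM in WT and 43.8, 51.5 and 48.9 CPM in KKO (log2 fold change -0.45 ± 0.09, adjusted p = 0.00264). In both the groups did not overlap. Of 19 genes of fatty acid oxidation 7 rose and none fell (3 to 10). Cpt1a, which moves long-chain fatty acids toward mitochondria, was at 31.4, 28.6 and 27.4 CPM in WT and 27.1, 27.7 and 30.6 CPM in KKO (log2 fold change -0.03 ± 0.08, adjusted p = 0.797). The groups overlapped for Cpt1a, which was not called. Of 37 genes of respiratory complex I 7 rose and none fell, with 0 to 9 when any 1 library was left out. Of 34 genes of complexes III to V 2 rose and none fell (leave-one-out range 1 to 8 higher). Of 28 genes of the citric acid cycle 3 rose and 2 fell (leave-one-out range 2 to 4 higher, and 0 to 4 lower, fewest without WT replicate 1, WT replicate 2, KKO replicate 1 or KKO replicate 3 and most without KKO replicate 2). The shares called in these lists were 18.9%, 5.88% and 17.9%, beside 24.3% over all genes.

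Changes in genes of ribosome assembly, DNA replication, mitosis and the cytosolic ribosome were small, and the counts called depended on which library was left out. All 28 ribosome assembly genes, 34 of the 35 DNA replication genes and 28 of the 30 mitosis genes had negative changes. All 77 cytosolic ribosomal protein genes had positive ones. The median change over all genes tested was -0.00420. Of 28 ribosome assembly genes 16 fell and none rose (median -0.27), of 35 DNA replication genes 21 fell and none rose (median -0.23), of 30 mitosis genes 6 fell, and of 77 cytosolic ribosomal proteins 13 rose (median 0.17). When any 1 library of 48 h was left out, the counts were 0 to 25, 3 to 33, 0 to 20 and 0 to 67. In each list the highest count was without KKO replicate 2. Without the 2 libraries with both sex readings they were 0, 2, 1 and 0. Nolc1, a nucleolar phosphoprotein, was at 538, 452 and 397 CPM in WT and 287, 427 and 299 CPM in KKO (log2 fold change -0.45 ± 0.14, adjusted p = 0.0302). Cdc6, which loads the replicative helicase, was at 88.4, 82.1 and 76.8 CPM in WT and 56.1, 75.8 and 58.1 CPM in KKO (log2 fold change -0.38 ± 0.09, adjusted p = 0.00949). Ccna2, the cyclin of S phase and G2, was at 270.0, 254 and 246 CPM in WT and 200.1, 243 and 207 CPM in KKO (log2 fold change -0.25 ± 0.08, adjusted p = 0.0415). KKO replicate 2 was inside the WT range for Nolc1 and just below WT replicate 3 for Cdc6 and Ccna2. Nolc1 and Ccna2 did not pass without WT replicate 1, WT replicate 2, KKO replicate 1 or KKO replicate 3, left out 1 at a time (adjusted p from 0.0772 to 0.191). Cdc6 did not pass without WT replicate 1, KKO replicate 1 or KKO replicate 3, left out 1 at a time (adjusted p from 0.0525 to 0.0566).

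**Figure D4:**
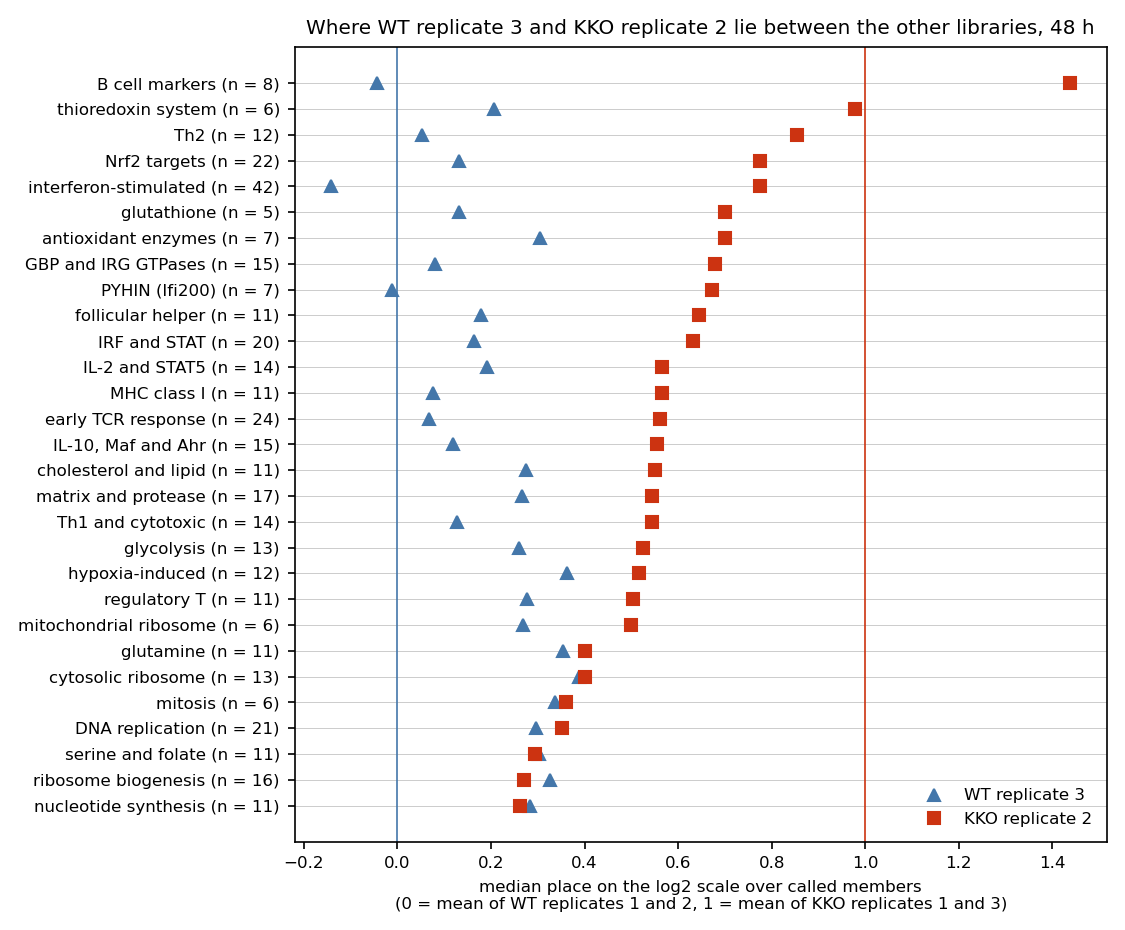
Median place of WT replicate 3 (blue triangles) and KKO replicate 2 (red squares) over the called genes of each list, on the log2 scale with 0 at the mean of WT replicates 1 and 2 and 1 at the mean of KKO replicates 1 and 3 (n is the number of called genes). In nucleotide, serine, ribosome assembly and DNA replication lists both libraries lie at 0.26 to 0.35, and in Th2, Nrf2 and interferon lists they lie apart.

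The position of KKO replicate 2 thus differed between groups of genes, as the plot of median places shows. Over called genes of the nucleotide, serine, ribosome assembly and DNA replication lists its median place was 0.26, 0.29, 0.27 and 0.35, and that of WT replicate 3 was 0.28, 0.30, 0.33 and 0.30. In these lists both libraries lay together between the groups. In the interferon-stimulated, Nrf2 target and Th2 lists the places of KKO replicate 2 were 0.77, 0.78 and 0.85 and those of WT replicate 3 -0.14, 0.13 and 0.05. Glycolysis and hypoxia lists were between these, at 0.52 and 0.52 for KKO replicate 2. Since these places use the same libraries as the calls, they are a description with no test. By the sex reading, KKO replicate 2 was the only KKO library of 48 h with Xist only. WT replicate 3 was the only WT library of 48 h with Y-linked transcripts only. What sets KKO replicate 2 apart, and whether the sex reading has a part in these places, was not tested.

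Genes of the TNF family and of chemokine signalling moved in both directions. Of 34 genes of the TNF family 11 rose and 7 fell (leave-one-out range 5 to 12 higher, fewest without WT replicate 2, KKO replicate 1 or KKO replicate 3, and 3 to 10 lower, fewest without WT replicate 2). Tnfrsf23, a decoy receptor for TRAIL in mice, was at 0.49, 0.486 and 0.854 CPM in WT and 4.38, 1.36 and 3.01 CPM in KKO (log2 fold change 2.25 ± 0.41, adjusted p = 0.00168). Tnf, tumour necrosis factor, was at 50.7, 51.8 and 56.9 CPM in WT and 29.9, 39.4 and 33.3 CPM in KKO (log2 fold change -0.64 ± 0.09, adjusted p = 0.00042). Tnfsf11, the cytokine RANKL, was at 172, 155 and 131 CPM in WT and 52.9, 123 and 54.7 CPM in KKO (log2 fold change -0.997 ± 0.30, adjusted p = 0.0439). Tnfrsf23 rose and Tnf and Tnfsf11 fell, all without overlap. Of 25 chemokine and chemokine receptor genes 7 rose and 7 fell (leave-one-out range 3 to 9 higher, fewest without WT replicate 2, and 6 to 7 lower). Cxcr4, the receptor of Cxcl12, was at 7.94, 15.3 and 24.9 CPM in WT and 54.3, 29.03 and 49.2 CPM in KKO (log2 fold change 1.46 ± 0.37, adjusted p = 0.0203). Ccl3, an inflammatory chemokine, was at 66.5, 54.2 and 48.9 CPM in WT and 21.5, 42.3 and 22.7 CPM in KKO (log2 fold change -0.98 ± 0.23, adjusted p = 0.0155). Ccr7, which guides naive cells to lymph nodes, was at 794, 912 and 872 CPM in WT and 633, 597 and 613 CPM in KKO (log2 fold change -0.48 ± 0.07, adjusted p = 0.000361). Cxcr4 was higher in all KKO libraries, and Ccl3 and Ccr7 were lower. Tnfsf11 did not pass without WT replicate 1, WT replicate 2, WT replicate 3, KKO replicate 1 or KKO replicate 3, left out 1 at a time (adjusted p from 0.0523 to 0.169). Cxcr4 did not pass without WT replicate 2, KKO replicate 1 or KKO replicate 3, left out 1 at a time (adjusted p from 0.0594 to 0.0932). Ccl3 did not pass without WT replicate 1, KKO replicate 1 or KKO replicate 3, left out 1 at a time (adjusted p from 0.0629 to 0.0733).

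Genes for matrix proteins, proteases and cytoskeletal scaffolds rose in 13 of 22 cases and fell in 4 (median 0.69), with 8 to 14 higher when any 1 library was left out. Ecm1, an extracellular matrix protein that Th2 cells express, was at 15.2, 15.3 and 19.6 CPM in WT and 134, 49.5 and 149 CPM in KKO (log2 fold change 2.73 ± 0.38, adjusted p = 0.00167). Lgals3, galectin-3, was at 8.05, 6.28 and 10.9 CPM in WT and 44.8, 23.3 and 28.9 CPM in KKO (log2 fold change 1.95 ± 0.24, adjusted p = 0.000231). Vim, the intermediate filament vimentin, was at 393, 428 and 547 CPM in WT and 1250.0, 709 and 1123 CPM in KKO (log2 fold change 1.17 ± 0.21, adjusted p = 0.0035). The groups were apart for all 3, and KKO replicate 2 was the lowest KKO library. Adam8, a membrane protease, was at 3.59, 2.83 and 4.22 CPM in WT and 18.2, 9.17 and 13.9 CPM in KKO (log2 fold change 1.96 ± 0.26, adjusted p = 0.000191). Serpinf1, a secreted protein of the serpin fold, was at 7.02, 7.12 and 12.5 CPM in WT and 48.9, 21.4 and 39.1 CPM in KKO (log2 fold change 2.04 ± 0.30, adjusted p = 0.00115). Both rose without overlap.

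Steroid and retinoid genes and the TGF-beta pathway held a few rises past 4-fold. Of 19 steroid and retinoid genes 5 rose and none fell (leave-one-out range 4 to 7 higher, and 0 to 3 lower, most without KKO replicate 2). Cyp11a1, which makes pregnenolone from cholesterol, was at 2.50, 3.45 and 3.37 CPM in WT and 26.5, 17.1 and 25.7 CPM in KKO (log2 fold change 2.89 ± 0.20, adjusted p = 1.69e-06). Stra6, the membrane receptor for retinol-binding protein, was at 12.2, 9.15 and 7.40 CPM in WT and 39.2, 38.6 and 37.6 CPM in KKO (log2 fold change 2.01 ± 0.20, adjusted p = 4.11e-05). Vdr, the vitamin D receptor, was at 1.41, 1.24 and 1.85 CPM in WT and 5.41, 3.23 and 5.06 CPM in KKO (log2 fold change 1.61 ± 0.29, adjusted p = 0.0016). No group overlapped, and KKO replicate 2 was within the range of the other KKO libraries for Stra6. Of 16 TGF-beta genes 7 rose and 3 fell (leave-one-out range 3 to 7 higher, fewest without KKO replicate 1, and 2 to 3 lower). Tgfb3, a TGF-beta ligand, was at 8.81, 12.6 and 19.3 CPM in WT and 83.5, 31.97 and 67.2 CPM in KKO (log2 fold change 2.16 ± 0.36, adjusted p = 0.00331). Smad3, which carries its signal, was at 27.5, 29.4 and 34.6 CPM in WT and 63.97, 41.98 and 58.1 CPM in KKO (log2 fold change 0.84 ± 0.13, adjusted p = 0.000641). Id3, an inhibitor of E proteins, was at 16.97, 17.1 and 23.7 CPM in WT and 10.4, 10.4 and 10.3 CPM in KKO (log2 fold change -0.90 ± 0.13, adjusted p = 0.000356). Tgfb3 and Smad3 rose and Id3 fell, and WT replicate 3 was the highest WT library for all 3.

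Transcripts of other cell types were low and partly higher in KKO, and their part in the results was not tested. Of 10 B cell markers tested 8 rose and none fell (median 1.15), and 5 to 8 rose when any 1 library of 48 h was left out. Their summed level was 26.9 to 37.7 CPM in WT and 54.2 to 81.3 CPM in KKO, highest in KKO replicate 2. H2-Ab1, an MHC class II chain, was at 41.3, 48.8 and 67.9 CPM in WT and 122, 73.4 and 99.8 CPM in KKO (log2 fold change 0.90 ± 0.20, adjusted p = 0.00884). Cd74, the class II invariant chain, was at 81.8, 84.2 and 75.7 CPM in WT and 73.7, 102 and 81.7 CPM in KKO (log2 fold change 0.09 ± 0.09, adjusted p = 0.513). H2-Ab1 was higher in all KKO libraries, most in KKO replicate 1, and Cd74 was not called. Genes of gamma-delta T and innate lymphoid cells were at 5.53 to 7.78 CPM in sum in WT and 10.01 to 20.3 CPM in KKO, with 3 of 6 higher, including the delta constant region Trdc (1.42, adjusted p = 0.00163). Whether such cells have a part in the type 17 counts above was not tested.

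Macrophage markers were at 76.8 to 92.4 CPM in sum in WT and 54.4 to 56.2 CPM in KKO, nearly all from Ctss and Mpeg1, while the defining markers Csf1r, Adgre1, C1qa, C1qb, C1qc and Fcgr1 were at or near 0. Markers of plasmacytoid dendritic cells that define them (Siglech, Ccr9 and Klk1) were listed at 0, and the sum of that list, mostly from the interferon-induced Bst2, was 114 to 128 CPM in WT and 85.4 to 101 CPM in KKO. Conventional dendritic cell markers were at 12.9 to 15.7 CPM in WT and 27.6 to 29.5 CPM in KKO, mostly from Batf3, a factor that T cells also express, with Clec9a and Cd209a at 0. Neutrophil markers were at most 0.712 CPM in WT and 0.905 to 3.49 CPM in KKO, from Ly6g alone among tested genes. Cd8a, the coreceptor of cytotoxic T cells, was at 1.74, 0.928 and 1.38 CPM in WT and 2.02, 2.55 and 2.39 CPM in KKO, low in all libraries (log2 fold change 0.79 ± 0.27, adjusted p = 0.0473). The B cell, lymphoid and conventional dendritic sums were higher and the macrophage and plasmacytoid sums lower in all KKO libraries than in all WT libraries. The lower sums do not stand for all members. Of 5 macrophage markers tested 2 rose and 2 fell (leave-one-out range 1 to 2 higher). Of 5 plasmacytoid markers tested 1 rose and 1 fell (leave-one-out range 0 to 1 higher), with a positive median (0.40). Cd8a did not pass without WT replicate 2, WT replicate 3, KKO replicate 1, KKO replicate 2 or KKO replicate 3, left out 1 at a time (adjusted p from 0.0753 to 0.191). Of 6 CD8 T cell markers tested 4 rose and 2 fell (leave-one-out range 1 to 3 higher, and 2 lower in each fit). Of 8 natural killer markers 2 rose and 2 fell (leave-one-out range 1 to 2 higher, and 1 to 2 lower). Eomes and Gzma are in both lists.

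The knockout effect differed between 48 h and 24 h for 552 of 13196 genes (4.18%) by a test of the difference itself in the fit of all 12 libraries. That fit took the libraries of both times as independent, and whether they share mice is not stated. At 24 h 307 genes were called, and 180 of these were also called at 48 h with the same sign. The Nrf2 targets were called higher in 12 cases at 24 h and 21 at 48 h, with medians of 0.37 and 0.43, and the difference was called for 2 of 35. For Nqo1 the change was 4.56 at 24 h and 3.83 at 48 h, and the difference was not called. For Srxn1 it was 3.97 and 2.55, and the difference was called (adjusted p = 0.000148). Keap1 fell by 2.69 at 24 h and by 2.57 at 48 h.

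Many interferon genes differed between the times. Their median change was 0.11 at 24 h, when 2 of 48 were higher and none lower, and -1.01 at 48 h, and the difference was called for 31. The same held for 12 of 18 Gbp and immunity-related GTPase genes. Isg15 had a fitted change of 0.29 at 24 h and -1.81 at 48 h, a difference of -2.10 (adjusted p = 0.00361). Its mean level in WT went from 2.26 to 51.4 CPM between the times and in KKO from 2.74 to 14.7 CPM.

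Mitosis and sterol genes had medians of opposite sign at the times. Of 30 mitosis genes 15 were higher at 24 h and 6 lower at 48 h (medians 0.35 and -0.19), and the difference was called for 21. Of 32 sterol and lipid genes 3 were higher at 24 h and 10 lower at 48 h (medians 0.12 and -0.18), with 8 differences called. Genes of the Th2 list were more alike at both times (medians 0.88 and 0.76, 2 differences called). In the IL-10 list the medians were 0.40 and 1.21, and 4 of 20 differences were called. The number of differences called depended on the libraries: it ran from 143 to 3217 when any 1 library of 48 h was left out and was 54 without the 2 libraries with both sex readings.

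**Figure D5:**
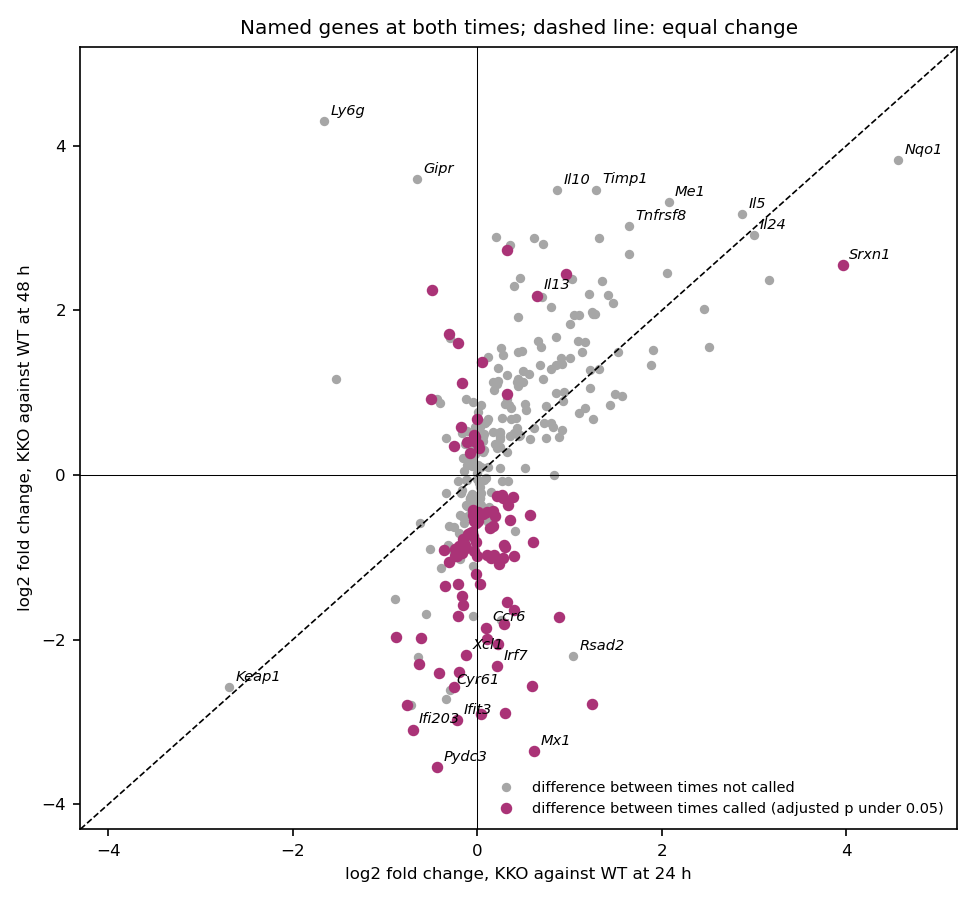
Fitted log2 fold change of KKO against WT at 24 h (horizontal) and at 48 h (vertical) for the named genes, with the dashed diagonal of equal change. Purple points are genes whose difference between the times was called (adjusted p under 0.05), most of them below 0 at 48 h and near 0 at 24 h, and Nqo1, Il24, Il5 and Keap1 lie close to the diagonal.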

How the data were processed

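Messenger RNA of 12 cultures was sequenced, 3 per genotype and time. The authors deposited 1 table of expected counts per gene and library, which need not be whole and are not normalised. Per the submitters' processing notes it was made with FastQC, RSEM and the mouse build mm10; the versions, the aligner and the annotation are not given in the sources used here, and the series text names a human reference although symbols and build are of mouse. The table also has 6 columns that match no sample label, which were not used. It holds 32699 genes, 27 of them under names that a spreadsheet turned into dates, which stayed in the fit and were not named.

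Expected counts were rounded to whole numbers and fitted with edgeR 4.0.16 (R 4.3.3, limma 3.58.1): TMM library sizes, filterByExpr (13196 genes tested) and the robust quasi-likelihood test over all 12 libraries and 4 groups, so that both times share 1 estimate of the spread (8 residual degrees of freedom). Adjusted p-values are Benjamini-Hochberg over all genes tested, and a gene was called at an adjusted p under 0.05. The difference between the times was the interaction in the same fit. This fit took the 12 libraries as independent. The sources used here do not say whether libraries of 24 h and 48 h came from the same mice. WT replicates 1 and 2 had Xist only, and WT replicate 3 Y-linked transcripts only, at both times. If mice were shared, 8 residual degrees of freedom overstate the independent information, and the test of the difference left out a pairing. Fold changes are of KKO over WT on the log2 scale, and ± after one is its standard error, the size of the change divided by the square root of the F statistic. CPM use the TMM library sizes; depth was 17786533 to 22418032 counts at 48 h and 23700071 to 32607685 at 24 h, so levels below 1 CPM rest on few counts. Counting does not use strand as far as the sources say, so overlapping genes on opposite strands may share reads.

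The members and all gene lists were chosen with earlier results of these data known, and some lists come from an earlier treatment of these data, so no list supports its own direction. There were 77 lists (62 of biology, 12 of other cell types and 3 of checks) with 1556 genes, of which 1402 were tested. Genes were named by this rule: Keap1, Nfe2l2, Il24, Mx1 and Tnfrsf8; of the called genes with annotated symbols, 2 CPM or more on average and no overlap of the groups, those with the 20 strongest rises and the 20 strongest falls; up to 4 called members of each list with the largest change; and the 10 most abundant called genes past 1.5-fold. All other genes given with values were chosen after their values were seen. Promoter windows came from RefSeq, build GRCm38.p6. The fitting script was checked on simulated counts. Alternatives were other scalings, filters, thresholds, DESeq2 1.42.0, limma-voom, a replicate block, the 48 h libraries alone, the Y-linked share as a covariate, and leaving out libraries. Some genes are not reported here.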

Additional observations from a re-analysis of the deposited data

Results flagged for a closer look

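For 98 of the 346 genes that the rule or the text names, the knockout effect at 48 h differed from that at 24 h by the test of the difference (edgeR, adjusted p under 0.05), beside 4.18% of all genes tested, and the values are log2 changes at 48 h minus those at 24 h. The named genes were mostly picked for large changes at 48 h, so their share is not a finding. Of these, 42 were genes of the interferon, STAT, MHC class I, MS4A and RNA editing lists called lower at 48 h. The values were -4.03 for Oasl2, -3.97 for Mx1, -3.20 for Ifi44, -3.12 for Pydc3, -2.94 for Rtp4, -2.76 for Ifit3, -2.53 for Irf7 and -2.39 for Ifi203. Values followed of -2.33 for Mx2, -2.10 for Isg15, -2.10 for Xaf1, -2.03 for Ms4a4c, -1.998 for Mnda, -1.86 for Tlr7, -1.66 for Pyhin1 and -1.50 for Slfn1. Next came -1.43 for Gbp10, -1.35 for Trim30a, -1.31 for Zbp1, -1.31 for Ifih1, -1.16 for Irgm1, -1.12 for Gbp6, -1.09 for Ms4a4b and -1.07 for Tgtp1. Smaller ones were -0.90 for H2-T24, -0.89 for Gbp7, -0.79 for Bst2, -0.79 for Tapbp, -0.77 for Nlrc5, -0.76 for Gbp9, -0.69 for Gbp5 and -0.69 for Stat2. The remainder included -0.66 for Gbp4, -0.63 for Gbp2, -0.63 for Irgm2, -0.63 for Stat4, -0.61 for Irf1, -0.54 for Igtp, -0.53 for Adar and -0.46 for Irf9. At the end stood -0.45 for Gbp3 and -0.38 for Tap1.

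A further 35 genes of other lists were called lower at 48 h. Their differences were -3.15 for Mpeg1, -2.62 for Cxcl10, -2.28 for Parp12, -2.19 for Fam26f, -2.07 for Xcl1, -2.04 for Eomes, -1.95 for Ccr6 and -1.42 for Klrk1. Then came -1.38 for Ccl3, -1.38 for Sntb1, -1.29 for Cd80, -1.19 for Nr4a3, -1.17 for Klf4, -1.15 for Il15ra, -1.14 for Perp and -1.05 for Klf6. Others had -1.003 for Tox, -0.97 for Itga4, -0.80 for Icam2, -0.77 for Tnf, -0.75 for Cd69, -0.74 for Cd40lg, -0.71 for Nr4a1 and -0.69 for Espl1. The rest had -0.66 for Spry1, -0.66 for Cenpe, -0.60 for Hsd17b7, -0.57 for Bcl2a1d, -0.56 for Sirt1, -0.56 for Kif11, -0.55 for Dhcr7 and -0.55 for Egr3. Also there were -0.52 for Ccna2, -0.47 for Kif23 and -0.44 for Ccr7.

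The difference was positive for 20 genes called higher at 48 h. In order of size it was 2.74 for Tnfrsf23, 2.42 for Ecm1, 2.02 for Ahr, 1.82 for Vdr, 1.53 for Il13, 1.48 for Mgll, 1.42 for Adarb1 and 1.33 for Tnfrsf26. Below these it was 1.29 for Rara, 0.76 for Hdac5, 0.69 for Pfkm, 0.67 for Batf, 0.60 for Ugdh, 0.53 for Suclg1, 0.52 for Ccs and 0.49 for Sesn3. Further down it was 0.45 for Sec61b, 0.36 for Tnfaip3, 0.34 for Uqcr11 and 0.31 for Sdf2l1.

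Srxn1 was called higher at both times, with a smaller change at 48 h. The difference was -1.41 for Srxn1. No explanation of these differences was tested.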

How the results depend on the processing

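No called gene that the rule or the text names changed direction under any alternative run. Against 3209 genes called at 48 h (1635 higher, 1574 lower) and 552 differences between the times, DESeq2, limma-voom, both other scalings and both other filters called 2785 to 3342 genes at 48 h, and the differences were 1128 with DESeq2 and 520 to 695 with the others. The share called higher was 51.0% and became 56.7% with upper-quartile scaling. Fitting only the 6 libraries of 48 h, with fewer degrees of freedom, called 1536 genes (885 higher, 651 lower). With both libraries that had Xist beside Y-linked transcripts left out, 1386 were called (738 and 648) and 54 differences, and with the Y-linked share as a covariate 2764 and 1424; the cause was not tested. An adjusted p under 0.01 left 1363 (732 and 631) and 85 differences, and a 2-fold minimum left 561 (391 and 170) and 148. With 1 library left out at a time, the calls ran from 1405 to 5362 (766 to 2513 higher, 639 to 2849 lower) and the differences from 143 to 3217. Of the 48 h libraries, omitting KKO replicate 1 gave the lowest counts of calls and omitting KKO replicate 2 the highest; leaving out a 24 h library gave 2788 to 3079 calls and 197 to 361 differences. Deviations of same-numbered 48 h libraries correlated at -0.249, 0.106 and 0.135, and those of differently numbered ones at -0.376 to 0.360. With 3 libraries per group, these correlations cannot decide whether replicate numbers pair the samples. With a replicate block the calls were 2894 (1503 and 1391) with 637 differences over all libraries and 1293 (757 and 536) over the 48 h libraries alone. This block joins libraries by replicate number, and those with the same number did not always share the sex reading. Replicate 1 at 48 h had Xist only in WT and Y-linked transcripts only in KKO, and KKO replicate 1 at 24 h had both. The block may thus join unlike sources, and it cannot check a pairing. Of 346 named genes, 106 lost their call without the libraries with both readings, 96 when KKO replicate 1 of 48 h was omitted and 2 when KKO replicate 2 was. With 3 libraries per group and these depths, genes below 1 CPM were measured with few counts.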

Other observations

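Signals between cells and adhesion genes moved in both directions. Of 23 Notch and Wnt genes 7 rose and 3 fell (leave-one-out range 2 to 8 higher, fewest without WT replicate 2, KKO replicate 1 or KKO replicate 3, and 1 to 5 lower, fewest without WT replicate 1 or KKO replicate 1 and most without WT replicate 3 or KKO replicate 2). Rbpj, the DNA-binding factor of Notch signalling, was at 490.3, 450.4 and 511 CPM in WT and 931, 799 and 900.3 CPM in KKO (log2 fold change 0.86 ± 0.08, adjusted p = 1.17e-05). Hey1, a Notch target, was at 0.598, 0.486 and 0.522 CPM in WT and 2.90, 1.02 and 1.14 CPM in KKO (log2 fold change 1.66 ± 0.41, adjusted p = 0.0105). Notch3, a Notch receptor, was at 0.979, 1.15 and 1.14 CPM in WT and 2.90, 1.41 and 3.01 CPM in KKO (log2 fold change 1.16 ± 0.39, adjusted p = 0.0405). Each rose with no overlap between the groups. Of 20 genes of immune checkpoints and the CD28 family 8 fell and 4 rose (leave-one-out range 2 to 6 higher, fewest without WT replicate 1, WT replicate 2, KKO replicate 1 or KKO replicate 3, and 6 to 10 lower). Cd200r1, an inhibitory receptor, was at 0.218, 0.221 and 0.237 CPM in WT and 0.836, 0.566 and 0.716 CPM in KKO (log2 fold change 1.63 ± 0.45, adjusted p = 0.019). Cd96, a receptor of T and natural killer cells, was at 30.6, 30.3 and 24.01 CPM in WT and 11.4, 20.5 and 14.4 CPM in KKO (log2 fold change -0.88 ± 0.17, adjusted p = 0.00341). Cd200r1 rose and Cd96 fell in all KKO libraries. Of 28 adhesion genes 7 fell and 4 rose, beside 11.9% lower and 12.4% higher over all genes (leave-one-out range 1 to 8 higher, fewest without WT replicate 2, KKO replicate 1 or KKO replicate 3 and most without KKO replicate 2, and 5 to 9 lower). Itga4, the integrin chain alpha-4 that binds VCAM-1, was at 53.6, 50.2 and 39.9 CPM in WT and 18.1, 31.1 and 23.8 CPM in KKO (log2 fold change -0.98 ± 0.17, adjusted p = 0.00207). Icam2, a ligand of the integrin LFA-1, was at 10.7, 10.2 and 8.40 CPM in WT and 4.77, 6.62 and 5.30 CPM in KKO (log2 fold change -0.81 ± 0.13, adjusted p = 0.000601). Both fell without overlap. Of 23 naive-cell genes 8 rose and 7 fell (leave-one-out range 5 to 8 higher, fewest without KKO replicate 1, and 5 to 7 lower), and of 14 Kruppel-like factors 4 fell and 1 rose (leave-one-out range 1 to 3 higher, most without KKO replicate 2, and 3 to 4 lower). Klf3, a Kruppel-like repressor, was at 14.9, 14.9 and 12.5 CPM in WT and 4.13, 9.62 and 5.82 CPM in KKO (log2 fold change -1.13 ± 0.22, adjusted p = 0.00405). All KKO libraries were below WT for it. Hey1 did not pass without WT replicate 2 or KKO replicate 1, left out 1 at a time (adjusted p from 0.0517 to 0.105). Notch3 did not pass without WT replicate 1, WT replicate 2, WT replicate 3, KKO replicate 1 or KKO replicate 3, left out 1 at a time (adjusted p from 0.072 to 0.164). Cd200r1 did not pass without WT replicate 1, WT replicate 2, KKO replicate 1 or KKO replicate 3, left out 1 at a time (adjusted p from 0.0585 to 0.0861).

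Genes of protein handling, cell cycle arrest and chromatin changed in smaller numbers. Of 34 lysosome and autophagy genes 11 rose and 1 fell (leave-one-out range 4 to 17 higher, fewest without KKO replicate 3 and most without KKO replicate 2), beside 12.4% higher and 11.9% lower over all genes. Ctsh, the lysosomal protease cathepsin H, was at 0.544, 0.177 and 0.142 CPM in WT and 0.934, 0.679 and 0.763 CPM in KKO (log2 fold change 1.50 ± 0.50, adjusted p = 0.0419). Sqstm1, the autophagy receptor p62, which also binds Keap1, was at 143, 143 and 153 CPM in WT and 224, 193 and 211 CPM in KKO (log2 fold change 0.52 ± 0.07, adjusted p = 0.000169). Both rose in every KKO library. Of 24 chaperone genes of the endoplasmic reticulum 7 rose and 1 fell (leave-one-out range 3 to 10 higher, fewest without WT replicate 2 or KKO replicate 3, and 0 to 4 lower, fewest without KKO replicate 1 or KKO replicate 3 and most without KKO replicate 2). Smox, which oxidises spermine, was at 44.01, 54.3 and 78.9 CPM in WT and 182, 92.0000 and 161 CPM in KKO (log2 fold change 1.30 ± 0.26, adjusted p = 0.00771). Cdkn1a, the cell cycle inhibitor p21, was at 186, 200.5 and 302 CPM in WT and 541, 335 and 424 CPM in KKO (log2 fold change 0.92 ± 0.21, adjusted p = 0.0114). Both rose without overlap, while of 22 p53 targets 5 fell and 2 rose (leave-one-out range 0 to 4 higher, fewest without KKO replicate 1 and most without KKO replicate 2, and 2 to 7 lower, fewest without WT replicate 1, WT replicate 2, KKO replicate 1 or KKO replicate 3). Mycn, a relative of Myc, was at 1.09, 0.398 and 0.949 CPM in WT and 3.98, 2.15 and 3.10 CPM in KKO (log2 fold change 1.94 ± 0.39, adjusted p = 0.00328). Mxd4, a Max partner that opposes Myc, was at 7.996, 7.21 and 9.44 CPM in WT and 19.2, 9.90 and 17.4 CPM in KKO (log2 fold change 0.92 ± 0.21, adjusted p = 0.0065). Both rose while Myc fell. Of 23 DNA methylation and Polycomb genes 6 fell and 2 rose (leave-one-out range 1 to 3 higher, fewest without WT replicate 2, KKO replicate 1 or KKO replicate 3, and 2 to 9 lower, fewest without WT replicate 1 or KKO replicate 1). Dnmt3a, a de novo DNA methyltransferase, was at 224, 207 and 185 CPM in WT and 120.4, 177 and 136 CPM in KKO (log2 fold change -0.51 ± 0.12, adjusted p = 0.00729). It fell in all KKO libraries. Of 76 mitochondrial ribosomal proteins 3 rose and 3 fell (leave-one-out range 0 to 7 higher, fewest without KKO replicate 3 and most without KKO replicate 2, and 0 to 20 lower, fewest without KKO replicate 1 or KKO replicate 3 and most without KKO replicate 2), and of 38 proteasome genes 1 rose and 1 fell (leave-one-out range 0 to 1 higher, fewest without WT replicate 2, KKO replicate 1, KKO replicate 2 or KKO replicate 3, and 0 to 8 lower, fewest without WT replicate 1, WT replicate 2, KKO replicate 1 or KKO replicate 3 and most without KKO replicate 2), below the shares over all genes. Ctsh did not pass without WT replicate 2, WT replicate 3, KKO replicate 1 or KKO replicate 3, left out 1 at a time (adjusted p from 0.097 to 0.158). Cdkn1a did not pass without KKO replicate 1 (adjusted p = 0.0556). Dnmt3a did not pass without WT replicate 1 (adjusted p = 0.0502). On the log2 scale, the fitted change of Ctsh was 2.27 without WT replicate 1.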
